A study of Saccharomyces cerevisiae with 6 samples.

Results

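The mitochondrial ribosomal proteins of budding yeast were taken as the rows of the deposited table whose standard gene name in the R64 annotation is MRPL, MRPS, MRP, RSM or IMG followed only by digits. This rule found 69 genes among 5917 rows. By their R64 product names, 40 encode proteins of the large subunit, 27 encode proteins of the small subunit, and 2, MRP8 and RSM22, are not given as structural parts of either. Of the 67 structural members, 42 have a bacterial homologue and 25 are specific to mitochondria. The members lie on 14 chromosomes, and none shares its values with another row.

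The mitochondrial ribosome translates the few messages of the mitochondrial genome, most of which encode membrane subunits of the respiratory chain and of ATP synthase. In yeast nearly all of its proteins are encoded in the nucleus, made in the cytosol and imported, while its ribosomal RNAs and 1 small-subunit protein, Var1, are encoded in mitochondria. The nuclear messages are textbook targets of Puf3, an RNA-binding protein that recognises a short motif in the 3′ untranslated region and acts on the decay, localisation and translation of messages for mitochondrial proteins.

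RNA was measured after cells had been given edelfosine, a synthetic ether lipid related to lysophosphatidylcholine, or its solvent. All cultures were grown to log phase at 30C in synthetic defined medium. The vehicle group had 0.095% ethanol for 60 minutes in W303 (replicates 1 and 2) and BY4741 (replicate 3), and the edelfosine group had 20 uM edelfosine for 60 minutes in the same strains under the same numbers. The titles mark all 6 as wild type (WT), and the labels call the replicates biological. Since replicate 3 is also the BY4741 replicate, a difference of strain cannot be told apart from a difference of that replicate. MET17, LEU2 and URA3, which mark the strains, were at 0 to 0.0868 deposited TPM in the BY4741 libraries and at 32.9 to 278 in the W303 libraries. The other marker, HIS3, went the other way, with 90.5 and 102 deposited TPM in the BY4741 libraries and a range of 24.3 to 52.7 in the W303 libraries.

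Levels are given in scaled TPM. TPM is a measure of transcript abundance per length with a fixed total in each library. The scaling divides each library by a factor taken from the trimmed average of its genes' log ratios to a reference library. A change is the difference of log2(scaled TPM + 1) between edelfosine and vehicle, fitted with limma with strain as a term, and a gene is called at a Benjamini-Hochberg adjusted p under 0.05 over all 5707 genes tested. Each value is thus relative to the other messages of its library. Less RNA per cell and fewer cells cannot be told apart in such data, and the read depth is unknown.

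Messages for mitochondrial ribosomal proteins were higher after edelfosine. With limma, 61 of the 69 members (88.4%) were called higher, where the share over all genes was 27.3% higher and 27.3% lower. None of the 69 was called lower, nor was any lower at an unadjusted p under 0.05. The median change of the members was 0.87 on the log2 scale, with the middle of the distribution between 0.67 and 1.04 and a range from -0.01 to 1.86, while the median over all genes was 0.01. In 55 members every edelfosine library lay above every vehicle library, a pattern seen in 30.3% of all genes. A rise of at least 2-fold was called in 20 members, against 14.1% of all genes. The count of calls rested on the replicates. It was 38 without vehicle replicate 1, 39 without replicate 1 of both groups, and 38 without replicate 2 of both groups. Over all genes the same fits called 1096, 1459 and 987 higher and 1114, 1461 and 1038 lower, against 1557 and 1558 with all libraries. The members' median change in these fits lay between 0.74 and 0.83, and at least 68 members were above 0.

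The members' share of all deposited TPM, which is not scaled, was also higher with edelfosine. It was 0.574%, 0.579% and 0.567% in vehicle replicates 1, 2 and 3 (mean 0.573% ± 0.006, SD, n = 3) and 1.87%, 1.85% and 1.26% with edelfosine (mean 1.66% ± 0.35, SD, n = 3). The BY4741 library with edelfosine was the lowest of its group and lay above all 3 vehicle libraries. The share is read from values with a fixed total, in which other genes fell: the 137 cytosolic ribosomal protein genes, named RPL, RPS or RPP, went from 53.0% ± 1.63 of all TPM to 14.8% ± 3.74 (SD, n = 3 each), and 136 of them fell, with a median log2 change of -2.54. The mitochondrial and the cytosolic ribosomal protein messages thus moved in opposite directions.

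The values depend on how the libraries are scaled. With TPM as deposited and no scaling, all 69 members were called higher with a median of 1.47, but the median over all genes was then 0.55 and the calls over all genes were split into 2837 higher and 760 lower, against 1557 and 1558 with scaling. With the cytosolic ribosomal proteins left out and the rest rescaled, 38 members were called higher and none lower, the members' median was 0.62, the median over all genes was -0.19 and the calls over all genes were 1091 higher and 1836 lower. Relative to the median of all genes, the members' median was 0.86 with scaling, 0.92 without and 0.82 with the cytosolic genes left out. Among the genes followed below, MRPL40, MRPL22, MRPL7, MRPL3, MRPL38, RSM23, RSM24, MNP1, PET54 and MTG2 lost their calls with the cytosolic genes left out.

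**Figure D1:**
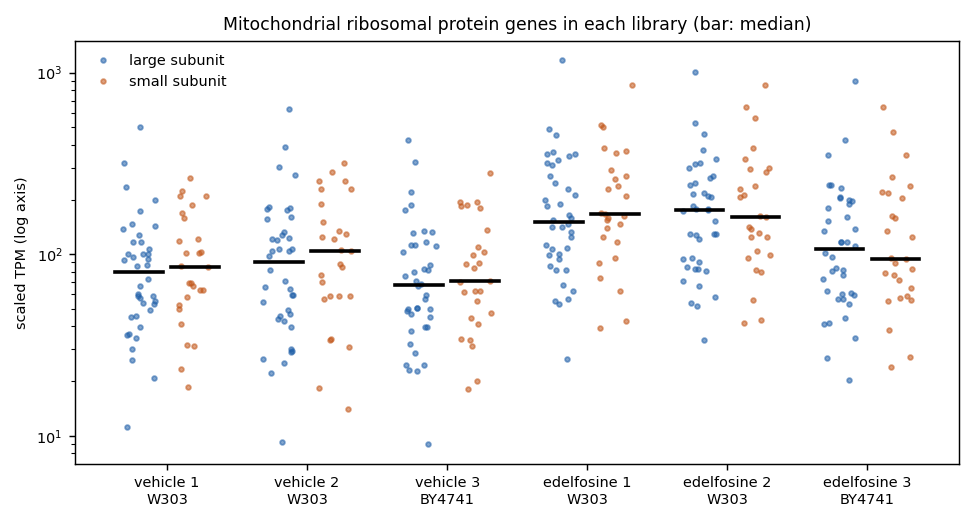
Scaled TPM (log axis) of the members in each of the 6 libraries, large subunit in blue and small subunit in orange; each point is 1 gene and the black bar is the subunit's median. The median over all 69 members was 84.7, 98.3 and 70.3 in vehicle replicates 1 to 3 and 159, 162 and 96.3 with edelfosine, so the BY4741 library with edelfosine lay just below the highest vehicle library in this summary.

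What the members share beyond their names is a short element after the stop codon. The sequence TGTANATA, the core of the known Puf3 recognition element, was searched on the sense strand in the 200 bases after the stop codon of each gene in the R64 reference genome of strain S288C. It was present in 67 of 69 members (97.1%), among them 40 of 40 of the large and 27 of 27 of the small subunit, and in 841 of 5892 genes overall (14.27%). The 2 members without it were MRP8 and RSM22, those not given as structural parts. Of the 137 cytosolic ribosomal protein genes 6 had it (4.38%). The sites below are those of the members that rose most in each subunit and of members that were not called, shown to compare both ends of the response; the capitals mark TGTANATA. They come from R64 at chrIII:209866-209889 (minus strand) for IMG1, chrX:315717-315740 (minus) for MRPL8, chrXII:1015470-1015493 (plus) for MRPL4, chrIV:1278502-1278525 (plus) for MRP20, chrXIV:695027-695050 (minus) for RSM19, chrXIV:694272-694295 (minus) for MRPS12, chrX:619114-619137 (plus) for RSM26, chrXII:760294-760317 (plus) for MRPL15, chrXIV:103078-103101 (minus) for MRPL10 and chrIV:372583-372606 (plus) for MRP10. W303 and BY4741 may differ from this reference. 
IMG1: ccatctccTGTATATAagaaaaat
MRPL8: tattccctTGTAAATAtatagatg
MRPL4: ctctctccTGTAAATAtatatata
MRP20: ctcacactTGTATATAcggagcaa
RSM19: ggatctagTGTATATAgatttcta
MRPS12: caacctttTGTAAATAgcaatgac
RSM26: ttatatacTGTAAATAgttttatt
MRPL15: aatttatcTGTAAATAgtgatcga
MRPL10: ttctcactTGTACATAccttaaga
MRP10: catggcctTGTATATAcaaattaa

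The element was present at both ends of this list. Since every structural member carries it, its presence could not part called from uncalled structural members, whatever their changes. It stood once in 54 members, at 2 places in 12 and at 3 in RSM19. Counted from the stop codon, its first base lay at a median of 51 bases (range 8 to 139) in members and 58 bases in all genes with a site, and 94% of the members' sites against 75.6% of all sites began within 100 bases. The base at the free position was A in 32 members, T in 22, C in 12 and G in 1, MRPL3. A C at the second base before the element, as in the sites of IMG1, MRPL8 and MRPL4 above, was present in 48 members (71.6%) and in 29.1% of all genes with a site. The reverse complement of the element, searched in the same windows as a control, was in 18.84% of members and 13.37% of all genes.

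Outside the members the element went with a smaller difference. Of the 765 other tested genes with a site, 36.6% were called higher and 21.7% lower with a median change of 0.26, while of the 4867 tested genes without a site 25.0% were called higher and 28.6% lower with a median of -0.04. The other genes with a site include all 12 mitoribosomal subunits under other names, 15 genes of the synthetase list and 7 translation factors, all followed below. The genes without a site include all but 6 of the 137 cytosolic ribosomal protein genes. This comparison does not separate out these sets. A match describes these letters in a reference sequence and is no measure of binding.

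**Figure D2:**
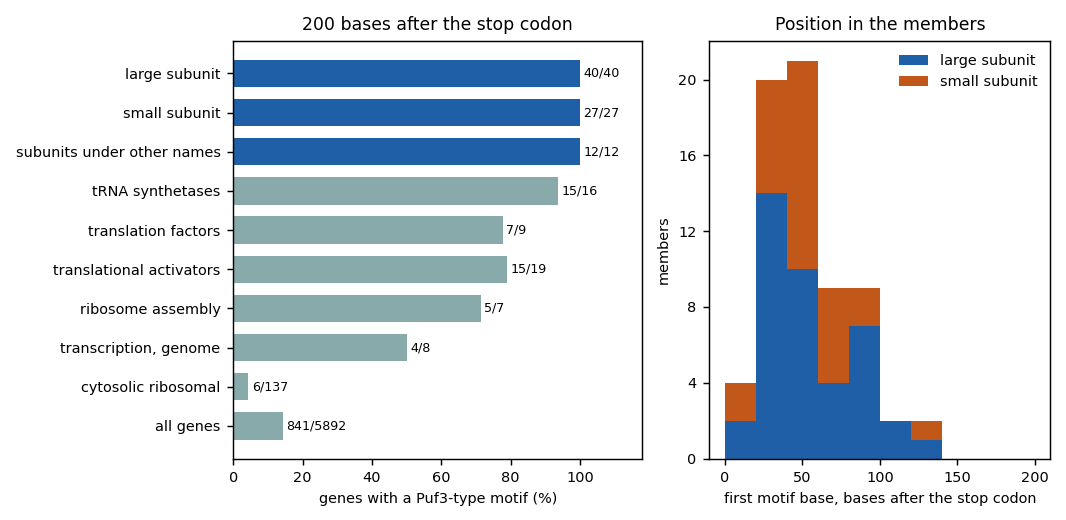
Left, percent of genes with TGTANATA in the 200 bases after the stop codon, by gene set, with the counts beside each bar; right, number of members by the distance in bases from the stop codon to the first site, large subunit in blue and small in orange. The structural members stand at 100%, all genes at 14.27%, and 63 of the 67 members with a site have it within 100 bases.

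In the large subunit 36 of 40 members rose (90%, beside 27.3% of all genes called higher) and 4 were not called. The median change was 0.91, with a range from 0.30 to 1.80. The 6 largest rises were in IMG1, MRPL8, MRPL4, MRP20, MRP35 and MRPL6, all of which encode proteins with a bacterial homologue. IMG1, the bL19 homologue, was first known from a mutant that does not keep an intact mitochondrial genome. Its level was 39.5, 42.7 and 39.6 scaled TPM in vehicle replicates 1 to 3 and 142, 178 and 117 with edelfosine. The 3 edelfosine libraries stood far above a narrow vehicle range, and the change was 1.80 ± 0.17 (log2, SE; limma adjusted p = 0.000783). MRPL8, the bL17 homologue, was at 53.4, 39.5 and 37.9 in vehicle and 125, 153 and 83.7 with edelfosine, a change of 1.42 ± 0.20 (limma adjusted p = 0.00195). The groups did not overlap, and BY4741 was the lowest library of each.

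The proteins around the exit of the polypeptide tunnel, through which the nascent chain leaves towards the inner membrane, included 2 of these. MRPL4, the uL29 homologue at the tunnel exit and the lowest of all members in vehicle, was at 11.2, 9.26 and 8.96 scaled TPM in vehicle and 26.6, 33.7 and 20.2 with edelfosine (change 1.34 ± 0.18, limma adjusted p = 0.00163). MRP20, the uL23 homologue beside it, was at 20.8, 22.2 and 32.0 in vehicle and 55.1, 80.5 and 56.6 with edelfosine (change 1.33 ± 0.23, limma adjusted p = 0.00419). In both genes the W303 replicate 2 library was the highest with edelfosine and the groups did not overlap. MRPL40, the uL24 homologue near the exit, and MRPL22, the uL22 homologue that lines the tunnel, rose by 0.91 ± 0.21 and 0.74 ± 0.17. The call for MRPL40 was lost without vehicle replicate 2 (limma adjusted p = 0.0525), and that for MRPL22 without vehicle replicate 1.

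MRP35 and MRPL6, the bL35 and uL6 homologues, completed the 6. MRP35 was at 117, 159.8 and 86.8 scaled TPM in vehicle and 328, 318 and 196 with edelfosine (change 1.21 ± 0.18, limma adjusted p = 0.00232). MRPL6 was at 86.1, 107 and 75.7 in vehicle and 246, 214 and 160.0 with edelfosine (change 1.19 ± 0.17, limma adjusted p = 0.00204). The lowest edelfosine library of each was BY4741 and stood above all 3 vehicle libraries. For these 6 genes the call held under each of the 18 alternatives tested against no change.

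Next come the members of the ribosomal stalks, where factors bind and used tRNA leaves. MRPL19 and MRPL11, the uL11 and uL10 homologues at the base of the factor-binding stalk, changed by 1.08 ± 0.20 and 0.92 ± 0.15, and MRPL1, the uL1 homologue that guides tRNA out, by 0.91 ± 0.17. MNP1, the bL12 homologue of the factor-binding stalk and a subunit under another name, changed by 0.68 ± 0.19 (limma adjusted p = 0.0238). Its call was lost without vehicle replicate 1, vehicle replicate 2 or edelfosine replicate 1. The call was also lost with the cytosolic ribosomal proteins left out (limma adjusted p = 0.0963) and without a strain term (limma adjusted p = 0.0687). MRPL19 overlaps the annotated gene YNL184C on the same strand by 113 bases, so its reads and those of YNL184C may be shared. For the central protuberance, whose members are not all named here, MRPL36, the bL31 homologue, rose by 0.79 ± 0.18 and MRPL7, the uL5 homologue, by 0.57 ± 0.18. MRPL7 was at 53.5, 59.3 and 46.9 scaled TPM in vehicle and 107, 82.6 and 56.8 with edelfosine, and the BY4741 edelfosine library lay inside the vehicle range. The call for MRPL7 was lost when any of 4 single libraries was left out (vehicle replicates 1 and 2, edelfosine replicates 1 and 3), and that for MRPL36 without vehicle replicate 1.

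MRPL16 and MRP7 have homologues that reach close to the peptidyl transferase centre, and whether their changes differ was not tested. MRPL16, the uL16 homologue near the tRNA sites, was at 94.0, 121 and 82.7 scaled TPM in vehicle and 199, 209 and 152 with edelfosine (change 0.91 ± 0.17, limma adjusted p = 0.00474). MRP7, the bL27 homologue whose bacterial relative reaches towards the same centre, was at 59.1, 54.3 and 48.8 in vehicle and 108, 83.0 and 52.9 with edelfosine. Here both W303 libraries were above the vehicle range and the BY4741 library lay within it. The change of MRP7 was 0.52 ± 0.20 and was not called (limma adjusted p = 0.0637), but the value lay near the threshold whenever BY4741 was left out: the limma adjusted p was 0.048 without vehicle replicate 3, 0.0498 without edelfosine replicate 3 and 0.0505, not called, without both.

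The other uncalled large-subunit members were MRPL33, MRPL10 and MRPL15. MRPL33, the uL30 homologue, was at 318, 389 and 322 scaled TPM in vehicle and 488, 524 and 425 with edelfosine. Its groups did not overlap, yet the change of 0.48 ± 0.17 stayed beyond the threshold (limma adjusted p = 0.0535) and came under it with the filter on low values removed (0.0491) or raised to 10 TPM (0.0455). MRPL10, the uL15 homologue, was at 60.7, 64.5 and 56.6 in vehicle and 85.6, 84.7 and 60.0 with edelfosine (change 0.32 ± 0.15, limma adjusted p = 0.12). MRPL15, a mitochondria-specific protein with a ribonuclease III-like fold, was at 92.9, 107 and 66.7 in vehicle and 132, 129 and 73.1 with edelfosine (change 0.30 ± 0.16, limma adjusted p = 0.142). In both, the W303 libraries with edelfosine were above all vehicle libraries and the BY4741 library was not. MRPL3, the other member with that fold, rose by 0.73 ± 0.20 (limma adjusted p = 0.0233), and its call was lost without vehicle replicate 1 or 2.

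In the small subunit 24 of 27 members rose (88.9%, beside 27.3% of all genes called higher) and 3 were not called. The median change was 0.85, with a range from -0.01 to 1.48. The largest 2 rises were in RSM19 and MRPS12, neighbours on chromosome XIV that lie in tandem with 229 bases between their coding regions and are the only adjacent pair among the members. RSM19, the uS19 homologue in the head of the subunit, was at 169, 229.8 and 179.7 scaled TPM in vehicle and 499.7, 646 and 473 with edelfosine (change 1.48 ± 0.20, limma adjusted p = 0.00186). MRPS12, the uS12 homologue of the decoding centre, was at 263, 316 and 279 in vehicle and 858, 853 and 644 with edelfosine (change 1.44 ± 0.18, limma adjusted p = 0.00148). Both were more than doubled in each strain, with no overlap of the groups.

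The next 4 rises were close to each other in size. MRP1, a mitochondria-specific protein with a superoxide dismutase-like fold, was at 41.1, 33.9 and 33.5 scaled TPM in vehicle and 90.0, 95.8 and 55.7 with edelfosine (change 1.10 ± 0.18, limma adjusted p = 0.00356). MRPS5, the uS5 homologue at the mRNA entry, was at 31.7, 34.0 and 34.0 in vehicle and 74.2, 81.3 and 58.5 with edelfosine (change 1.07 ± 0.16, limma adjusted p = 0.0026). MRPS18, the uS11 homologue, and MRP51, the bS1 homologue that in yeast acts in translation of messages through their leaders, rose by 1.07 ± 0.16 and 1.06 ± 0.19 (limma adjusted p = 0.00259 and 0.00416). In all 4 the groups did not overlap and the BY4741 library was the lowest with edelfosine, and all 4 calls held under each of the 18 alternatives.

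RSM26 was the one structural member with no rise. It encodes the second small-subunit protein with a superoxide dismutase-like fold, the partner in kind of MRP1. Its level was 86.5, 105 and 88.7 scaled TPM in vehicle and 117, 104 and 65.0 with edelfosine, so W303 replicate 1 was above the vehicle range and BY4741 below it. The change was -0.01 ± 0.20 (limma adjusted p = 0.981), and in the same-numbered pairs it was 0.43, -0.00 and -0.44. Its sign turned under 6 of the left-out libraries or pairs, where it lay between 0.0019 and 0.24, and it was called higher with TPM as deposited (0.60). RSM26 carries the same TGTAAATA form of the element as MRPS12.

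MRP2 and MRP10 were the other uncalled members of the small subunit. MRP2, the uS14 homologue, was at 209, 254 and 184 scaled TPM in vehicle and 359, 333 and 218 with edelfosine (change 0.47 ± 0.18, limma adjusted p = 0.0611). MRP10, a small protein with paired cysteine motifs that are oxidised on its import by Mia40, was at 209, 229 and 195 in vehicle and 259, 294 and 238 with edelfosine (change 0.32 ± 0.16, limma adjusted p = 0.131). The MRP10 groups did not overlap and its 3 pairs agreed in size, at 0.31, 0.36 and 0.29, whereas in MRP2 the BY4741 edelfosine library lay inside the vehicle range. RSM23, a GTP-binding homologue of human DAP3, rose by 0.77 ± 0.21 (limma adjusted p = 0.021), and this call was lost without vehicle replicate 1 or vehicle replicate 2.

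MRP8 and RSM22 carry a ribosomal name without being given as structural parts. MRP8, annotated in R64 as a hypothetical protein once thought to be mitochondrial ribosomal, was at 126, 105 and 137 scaled TPM in vehicle and 364, 525 and 463 with edelfosine. Its rise of 1.86 ± 0.20 (limma adjusted p = 0.00104) was the largest of the 69, and its lowest edelfosine library was W303 replicate 1, not BY4741. RSM22, a predicted RNA methyltransferase needed for the small subunit, was at 11.8, 11.1 and 10.8 in vehicle and 19.3, 14.8 and 13.6 with edelfosine. The RSM22 groups did not overlap, but the change of 0.45 ± 0.16 was not called (limma adjusted p = 0.0514) and came under the threshold without edelfosine replicate 2 (0.0304).

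**Figure D3:**
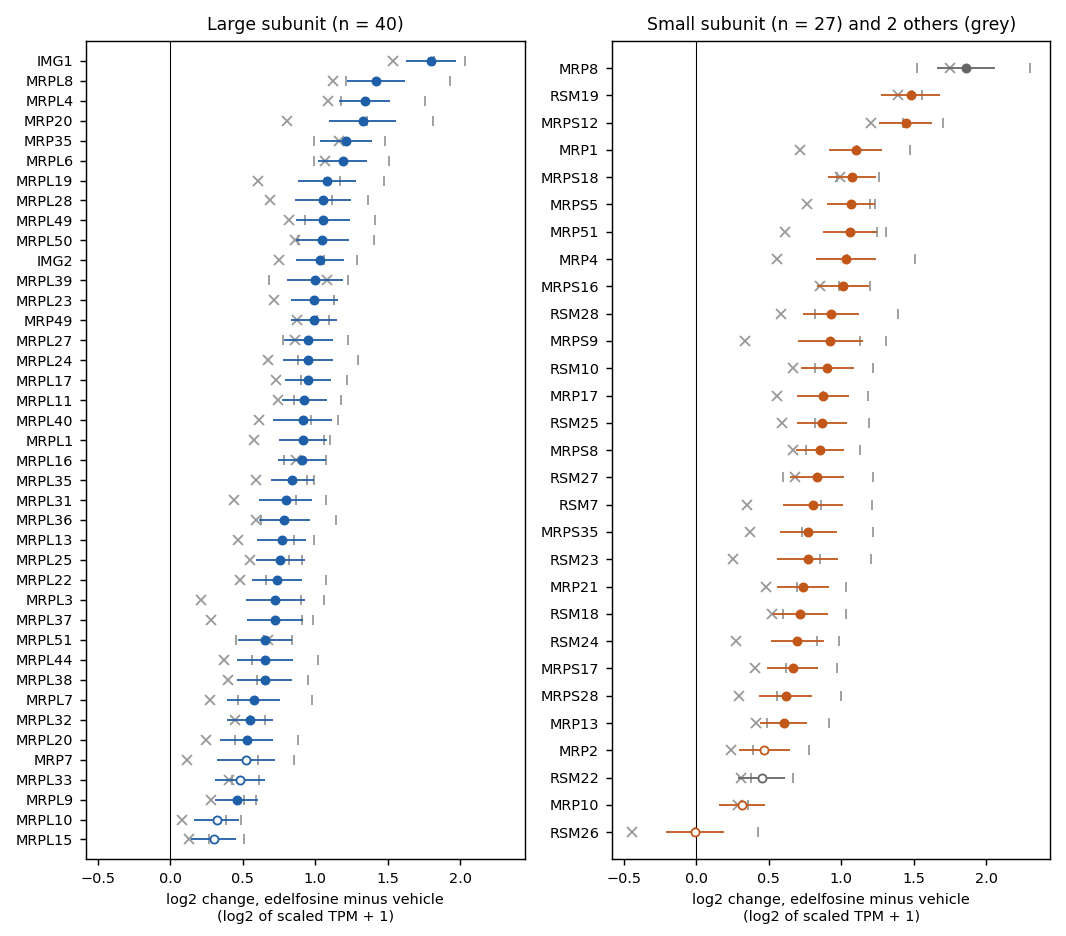
Log2 change of each member, edelfosine minus vehicle, in log2(scaled TPM + 1), sorted within subunit; filled points with bars are the limma estimate ± SE, open points were not called, MRP8 and RSM22 are in grey, grey bars mark the W303 same-numbered pairs and crosses the BY4741 pair. All points but RSM26 lie above 0, and the crosses lie mostly to the left of the W303 pairs.

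The subunits did not part in a stable direction. The median change of the large subunit exceeded that of the small subunit by 0.06 in the fit over all libraries, but in the same-numbered pairs the difference was -0.12, 0.08 and 0.05. Without single libraries or pairs it lay between -0.045 and 0.079. The summed scaled TPM of the large subunit was 1.44, 1.41 and 1.41 times that of the small subunit in vehicle and 1.35, 1.33 and 1.40 times with edelfosine. The highest ratio with edelfosine, in BY4741, was just below the vehicle values, so the groups did not overlap in this measure, while the ratio of the subunits' medians, 0.941, 0.862 and 0.951 in vehicle and 0.898, 1.08 and 1.12 with edelfosine, did overlap and leaned the other way. By origin, 38 of 42 members with a bacterial homologue rose (90.5%) with a median of 0.92, and 22 of 25 mitochondria-specific members (88%) with a median of 0.77. Over all genes 27.3% were called higher. Of the 20 members called at 2-fold or more, 16 were bacterial homologues, 3 were mitochondria-specific and 1 was MRP8.

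Levels differed far more between members than between conditions. In vehicle the mean ran from 9.81 scaled TPM in MRPL4 to 517 in MRPL39, with a median of 87.0. The highest in the large subunit were MRPL39, MRPL33 and MRPL38 at 517, 343 and 238, and in the small subunit MRPS12, MRPS16 and MRP2 at 286, 234 and 216. The lowest were MRPL4, MRP20 and MRPL35 at 9.81, 25.0 and 25.1, and MRP4, RSM23 and RSM24 at 16.9, 20.6 and 31.2. The genes of such a ranking share their libraries, and whether their levels differ was not tested. MRPS16 was at 223, 283 and 194 in vehicle replicates 1 to 3 (SD 45.4, n = 3). MRP2 was lower in each of these libraries, at 209, 254 and 184 (SD 35.5, n = 3). MRP20, at 20.8, 22.2 and 32.0, and MRPL35, at 26.2, 26.3 and 22.7, changed order between the libraries (SD 6.09 and 2.08, n = 3).

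Short members had the higher levels. Across the 69 genes, whose coding length runs from 213 to 1887 bases, Spearman's rho between vehicle level and coding length was -0.816, and it was -0.569 across the 5701 genes with a length; these are descriptions across genes of the same libraries, which share their depth and the length term of TPM. The size of the change was nearly unrelated to length, with rho of -0.098 in members. MRPL39, the shortest member and the bL33 homologue, was at 500.2, 628 and 423 scaled TPM in vehicle and 1173, 1009 and 898 with edelfosine (change 1.00 ± 0.19, limma adjusted p = 0.00562). MRPL38, the uL14 homologue, rose by 0.65 ± 0.19 (limma adjusted p = 0.0255) with overlapping groups, and its call was lost without vehicle replicate 1 or vehicle replicate 2. Among the low members, MRPL35 (mL38), MRP4 (uS2) and RSM24 (mS35) rose by 0.84 ± 0.15, 1.03 ± 0.21 and 0.70 ± 0.18, and MRPS16, the bS16 homologue, by 1.01 ± 0.18. The call for RSM24 was lost without vehicle replicate 1 or vehicle replicate 2. Those for MRPL39 and MRP4 were lost without same-numbered libraries of both groups, replicate 1 for MRPL39 and replicate 2 for MRP4. MRPL51 overlaps YPR099C on the opposite strand by 323 bases and MRP4 overlaps YHL005C on the opposite strand by 2 bases, and the library kit named in the labels does not mark strand, so reads from the shared bases cannot be assigned to a strand. In MRP4 this touches 2 bases only, and in MRPL51 most of a coding region of 423 bases.

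The rise was smaller in the BY4741 pair. The members' median change was 1.08 and 0.87 in the W303 pairs and 0.59 in the BY4741 pair, where the median of all genes was -0.02, 0.04 and -0.00. A change above 0 in all 3 pairs was seen in 68 of 69 members, the exception being RSM26, and in 37.7% of all genes. In the interaction of strain and treatment, 67 of 69 members had a smaller change in BY4741, with a median difference of -0.38 on the log2 scale. Over all genes 2881 of 5707 had an interaction below 0. So had 12 of 12 subunits under other names and 15 of 16 genes of the synthetase list followed below. Of the cytosolic ribosomal protein genes 2 of 137 had it, with a median interaction of 0.60. These genes fell, so for them a value above 0 is a smaller fall in BY4741. Their median change was -2.25 and -3.30 in the W303 pairs and -2.13 in the BY4741 pair. A smaller change in that pair was thus not particular to the members. With limma no member was called for this interaction and none had an unadjusted p under 0.05; over all genes 0% were called and 3.08% had an unadjusted p under 0.05. That fit has 2 residual degrees of freedom, and the BY4741 change rests on 1 library per treatment. For the strain term itself, the members' median was -0.41 (BY4741 minus W303), and no member was among the 24 genes called with limma (0.421% of all genes), although 25 of 69 members and 657 of 5707 genes had an unadjusted p under 0.05. These measures share their libraries, and what is seen of BY4741 is also what is seen of replicate 3. The numbers were not found to pair the W303 libraries, as given at the end, so the W303 pairs go by number only.

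The rest of the mitochondrial translation apparatus was followed in lists set from background knowledge. Of the mitoribosomal subunits whose genes have other names, 10 of 12 rose (83.3%, where 27.3% of all genes were called higher), with a median of 1.01. MHR1, a large-subunit protein that also has a role in mitochondrial DNA recombination, was at 50.9, 45.5 and 43.1 scaled TPM in vehicle and 129.6, 145 and 96.2 with edelfosine (change 1.37 ± 0.16, limma adjusted p = 0.00118). RTC6, the bL36 homologue, YML6, the uL4 homologue, and QRI5 rose by 1.24 ± 0.16, 1.09 ± 0.18 and 1.16 ± 0.19. PET123 and NAM9, of the small subunit, were not called, with changes of 0.39 ± 0.16 and 0.55 ± 0.22 (limma adjusted p = 0.0729 and 0.0762). All 12 carry TGTANATA after the stop codon.

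All 8 tested mitochondrial translation factors rose (100%, where 27.3% of all genes were called higher), with a median of 0.94. MEF2, the ribosome recycling GTPase, changed by 1.16 ± 0.15 (limma adjusted p = 0.00151), and TUF1, the elongation factor that brings tRNA, by 1.01 ± 0.16 (limma adjusted p = 0.00284). GUF1, the homologue of bacterial LepA, and IFM1, the initiation factor, each rose by 0.90. Of the mitochondrial tRNA synthetases and amidotransferase subunits, 14 of 16 rose (87.5%, beside the same 27.3%), with a median of 0.91. MSD1, the aspartyl-tRNA synthetase, was at 7.34, 6.84 and 6.51 scaled TPM in vehicle and 24.3, 22.3 and 15.0 with edelfosine (change 1.42 ± 0.16, limma adjusted p = 0.00114). DIA4, MSY1 and SLM5, the seryl-, tyrosyl- and asparaginyl-tRNA synthetases, rose by 1.62 ± 0.22, 1.19 ± 0.15 and 1.14 ± 0.17, while MSM1 and MSW1, for methionine and tryptophan, had uncalled changes of 0.31 and 0.10. The element after the stop codon was in 7 of 9 factor genes and 15 of 16 genes of the synthetase list. The factor genes without it were MEF2 and FMT1, which was not tested. In the synthetase list GTF1 lacked it and rose by 1.54 ± 0.28, while the uncalled MSM1 and MSW1 carry it.

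In the lists of proteins that act around the mitochondrial ribosome, the shares called were near those of all genes or below, but other measures leaned upward. Groups without overlap, edelfosine above vehicle, were seen in 11 of 19 activators and anchors and 4 of 7 assembly genes. For transcription and genome upkeep it was 3 of 8, beside 30.3% of all genes. A change above 0 in all 3 pairs was seen in 14, 6 and 5 genes of these lists, beside 37.7% of all genes. Of 19 translational activators and membrane anchors, 6 rose (31.6%) and 2 fell (10.5%), beside 27.3% in each direction over all genes, with a median of 0.37, and 15 of 19 carry the element. MSS51, the activator of COX1 message translation, was at 21.4, 20.0 and 25.2 scaled TPM in vehicle and 74.1, 82.4 and 58.8 with edelfosine (change 1.64 ± 0.19, limma adjusted p = 0.00115). The ribosome receptor MBA1 and the cytochrome b factor CBP6 rose by 1.13 ± 0.18 and 1.02 ± 0.21, and PET54, an activator of COX3, by 0.63 ± 0.17, a call lost without vehicle replicate 1, vehicle replicate 3 or edelfosine replicate 3. CBP1 and CBS1, which serve the cytochrome b message, both fell by 0.47 (limma adjusted p = 0.0299 and 0.0329). Their direction flips with TPM as deposited, to 0.06 and 0.10, and the calls of both were lost when any of 5 libraries (all but edelfosine replicate 1) was left out. The count of 6 was 3 without vehicle replicate 1, vehicle replicate 3 or edelfosine replicate 3, and 4 without vehicle replicate 2. Of 7 assembly and rRNA modification genes 2 rose (28.6%, beside 27.3% of all genes), MAM33 by 1.17 ± 0.19 (limma adjusted p = 0.00325) and the GTPase MTG2 by 0.49 ± 0.16 (limma adjusted p = 0.0427), and the call for MTG2 was lost when any of the same 5 libraries was left out. MRM2 and MTG1 of this list had uncalled changes of 0.40 and 0.30, and MRM2 was called without edelfosine replicate 1 (limma adjusted p = 0.0272). Of 8 genes for mitochondrial transcription and genome upkeep only RPO41, the mitochondrial RNA polymerase, was called (12.5%), with a rise of 1.03 ± 0.17 (limma adjusted p = 0.00362), and DSS1, SUV3 and RIM1 had uncalled changes of 0.39, 0.41 and -0.41. The change of RIM1 depended on the scaling: it was 0.19 with TPM as deposited and -0.66, called lower (limma adjusted p = 0.0132), with the cytosolic ribosomal proteins left out. VAR1, the mitochondrially encoded subunit, averaged 0.469 scaled TPM in vehicle and 0.109 with edelfosine in these poly(A)-selected libraries and was below the filter for testing.

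**Figure D4:**
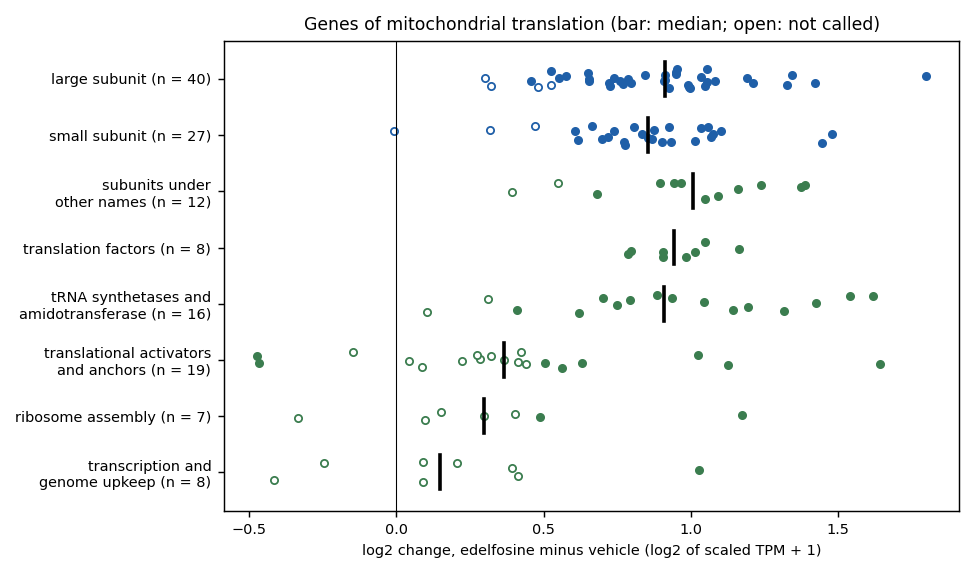
Log2 change of each tested gene, edelfosine minus vehicle, in log2(scaled TPM + 1), for members (blue) and the other lists (green); each point is 1 gene, filled if called, and the black bar is the list's median. Medians run from 1.01 for subunits under other names and 0.94 for translation factors to 0.37 for activators and anchors, 0.30 for assembly and 0.15 for transcription and genome upkeep, beside 0.01 for all genes.

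For the 4 motifs chosen for the promoters, the share of members with a match was not above that of all genes; the differences were not tested. Windows ran from 250 bases before to 50 after the start codon, and both strands were read. AATTTT was in 42.03% of members and 51.81% of all genes, CCAAT, the core bound by the Hap complex, in 40.58% and 43.22%, AGGGG, the core bound by Msn2 and Msn4, in 17.39% and 21.44%, and TATAAA in 36.23% and 45.37%. TGTANATA itself, read there on the sense strand only as a control, was in 8 of 69 members (11.59%) and 6.994% of all genes. TATAAA was in 47.5% of large-subunit and 18.52% of small-subunit promoters.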

How the data were processed

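Poly(A)-selected RNA from 6 yeast cultures was sequenced. The authors deposited 1 table of TPM per gene and library; every column has the same total. Kallisto and sleuth are named, with no version, in the submitters' processing notes. Transcript set and build: not given in the sources used here. Depth cannot be read from TPM, so no count test, interval or detection floor applies, and the number of replicates sets the precision.

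Names came from the R64 annotation (5911 of 5917 rows matched). Genes with at least 1 TPM in 3 libraries were tested (5707). Libraries were scaled by trimmed mean of M values (30% of M, 5% of A trimmed; factors 0.715 to 1.25), and log2(scaled TPM + 1) was fitted with limma 3.58.1 in R 4.3.3 (trend, strain and treatment, 3 residual and 3.41 prior degrees of freedom) with Benjamini-Hochberg adjustment at 0.05. All adjusted p-values come from limma. Fold changes on this scale understate low genes. The fit was tested on simulated data. Nothing in the labels says whether the replicates were grown on separate days.

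Alternatives covered scaling, filters of 0 and 10 TPM, pseudocounts of 0.5 and 5, designs, a 1.5-fold threshold and left-out libraries. Members and lists were chosen with earlier results of these data known. Named genes were, per subunit, the 6 largest called rises, all uncalled members, the 3 highest and 3 lowest in vehicle, members outside the ribosome, and in each list up to 4 with the smallest adjusted p plus any called against its list. Members with a known place in the ribosome, NAM9, PET123, MNP1, MSM1, MSW1, GTF1 and FMT1 were named besides, after their values were seen.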

Additional observations from a re-analysis of the deposited data

How the results depend on the processing

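The rise held its direction in at least 68 of 69 members under all 18 alternatives tested against no change. No member was called lower in any of them, and 32 members were called in all. The matching count over all genes was not taken, so the 32 has no background share beside it. Main counts were 61 members, 36 large, 24 small, 41 genes of the other lists, and 1557 higher and 1558 lower genes overall. Without scaling they were 69, 40, 27, 63, 2837 and 760, with medians of 1.47 (members), 1.51 (large) and 1.46 (small) and RSM26, RIM1, CBP1 and CBS1 reversed to 0.60, 0.19, 0.059 and 0.10. With cytosolic ribosomal proteins left out, 38 members, 23 large and 14 small were called and the large median was 0.67. Tested against a 1.5-fold change, the counts were 10, 6, 3, 13, 610 and 706. Leaving out libraries or same-numbered pairs gave 38 to 59 members, 23 to 33 large, 13 to 24 small, 29 to 43 list genes, 987 to 1681 higher and 1038 to 1678 lower genes, and RSM26 from -0.21 to 0.24. The list counts ranged likewise, among them 9 to 14 synthetase genes, with 9 without replicate 2 of both groups. W303 alone (without replicate 3) gave 55 members, with 1166 called higher and 1174 lower over all genes.

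With a replicate block, 58 members were called (33 large and 24 small) and 1488 genes were higher and 1529 lower overall. The deviations of same-numbered libraries from their group means correlated at 0.33, 0.05 and 0.51. By the limit of 0.1 in each pair, the numbers thus do not pair the libraries. Vehicle replicate 2 correlated with edelfosine replicate 1 at 0.32, near the 0.33 of the first pair. These deviations keep the strain difference, so the 0.51 of replicate 3 is also that of BY4741 against W303. Without a strain term 51 members were called, with 1434 called higher and 1504 lower over all genes. MRPL7, MRPL38, MRPL3 and MNP1 were among the genes whose calls were then lost. The other filters, pseudocounts and median of ratios scaling gave 61 or 62. Depth is unknown, with 3 libraries a group and 1 of BY4741.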
